A study of Drosophila melanogaster with 16 samples.

Results

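The nuclear genes of respiratory complexes II to V were taken as all annotated genes whose NCBI symbol starts with Sdh, UQCR, COX or ATPsyn, together with Cyt-c1, RFeSP and Cyt-c-p, leaving out the mtDNA-encoded COX1, COX2 and COX3. The rule gave 51 of the 17207 genes counted. They comprised 8 genes of complex II, 11 of complex III, 1 for cytochrome c, 16 of complex IV and 15 of complex V. By annotation 32 encode subunits, 18 are paralogs whose symbols end in L or L2, and 1, Sdhaf3, encodes an assembly factor. Subunits with other symbols, such as the ATP synthase alpha subunit blw, fall outside the rule and are given as a separate list.

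RNA-seq was done on whole wandering Drosophila larvae, described in the study's methods as female, in 4 groups of 4 libraries. These were Dahomey larvae on 1:16 P:C food, Alstonville larvae on 1:16 P:C food, Dahomey larvae on 1:2 P:C food and Alstonville larvae on 1:2 P:C food, where P:C is the ratio of protein to carbohydrate. Dahomey and Alstonville are mitotypes, that is, mtDNA lineages, placed in the same w1118 nuclear background. All groups also shared an added microbiome homogenate. Their mtDNAs differ in the ND4 subunit of complex I and also in the COIII subunit of complex IV and the ATP6 subunit of complex V. The paper also lists differences in the mitochondrial rRNA genes and in the A+T-rich region. The balancer crosses did not replace chromosome 4, where 1 of the 51 genes, ATPsynbeta, lies, and its variation was reduced by backcrossing instead. Remaining differences between the lines on chromosome 4 cannot be told apart from the mtDNA.

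Respiratory complexes sit in the inner mitochondrial membrane. Complex II oxidises succinate and complex III takes electrons from ubiquinone to cytochrome c, which carries them to complex IV, where oxygen is reduced. Complex V, the ATP synthase, uses the proton gradient to make ATP. Complex II is wholly nuclear-encoded, while III, IV and V also hold mtDNA-encoded subunits. In Drosophila many subunits have a second gene copy expressed mainly in testis.

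Libraries held 24869991 to 31896525 counts. The 51 genes took 0.274 to 1.32% of them. Levels are given in CPM, counts scaled to the TMM-adjusted library size, with n = 4 libraries per group. The labelled stage and sex were compared with marker genes. Salivary glue genes, which larval salivary glands make late in larval life, summed to 4.2 to 2639 CPM in Dahomey larvae on 1:16, where only replicate 2 was above 5.74 CPM, and to 4.4 to 6.6 CPM in Alstonville larvae on 1:16. On 1:2 the sums were 10177 to 16003 CPM in Dahomey and 8900 to 13386 CPM in Alstonville. lncRNA:roX1, a male dosage compensation RNA, was at 258 to 347 CPM in Dahomey and 113 to 503 CPM in Alstonville on 1:16. On 1:2 it was at 189 and 685 CPM in Dahomey replicates 2 and 4 and at 152 and 191 CPM in Alstonville replicates 2 and 3, and at 13.0 to 20.8 CPM in the other 4 libraries. These RNAs go against the description of the larvae as female and, on 1:16, glue levels go against the wandering stage.

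Of the 51 genes 48 had enough reads to be tested. UQCR-14 (X:16286288-16286988, Release 6) and COX5BL (2L:6559431-6560133) had 0 counts in every library, and COX7AL2 had 69 counts in all. In the annotation UQCR-14 shares 523 exon bases with CG32576 and COX5BL shares 647 with Trmt6, both on the opposite strand. In total 20 of the 51 genes share exon bases with another gene, 17 of them with one on the opposite strand. Since the treatment of strand was not stated, reads of such pairs cannot be told apart.

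Levels per kb of the gene length given with the counts spanned a wide range. ATPsynbeta (4:1031484-1034917), the catalytic subunit of ATP synthase, was highest, at 666 CPM per kb averaged over the 16 libraries. ATPsynC, which forms the rotor ring, followed at 640 CPM per kb. The highest gene of complex IV was COX7B, at 338 CPM per kb. UQCR-C1, a core protein of complex III, was at 237 CPM per kb, Cyt-c-p at 187 CPM per kb and SdhB, the iron-sulfur subunit of complex II, at 125 CPM per kb. The lowest subunit with reads was ATPsyndelta, at 37.6 CPM per kb. Its length was 3817 bases, and it shares 1358 exon bases with CG2962 on the opposite strand. Before division by length it was at 51.0 to 274 CPM per library, beside 10.2 to 70.5 CPM for UQCR-6.4. Sdhaf3 was at 6.90 CPM per kb and every paralog was below it, the highest being COX4L at 4.18 CPM per kb.

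**Figure D1:**
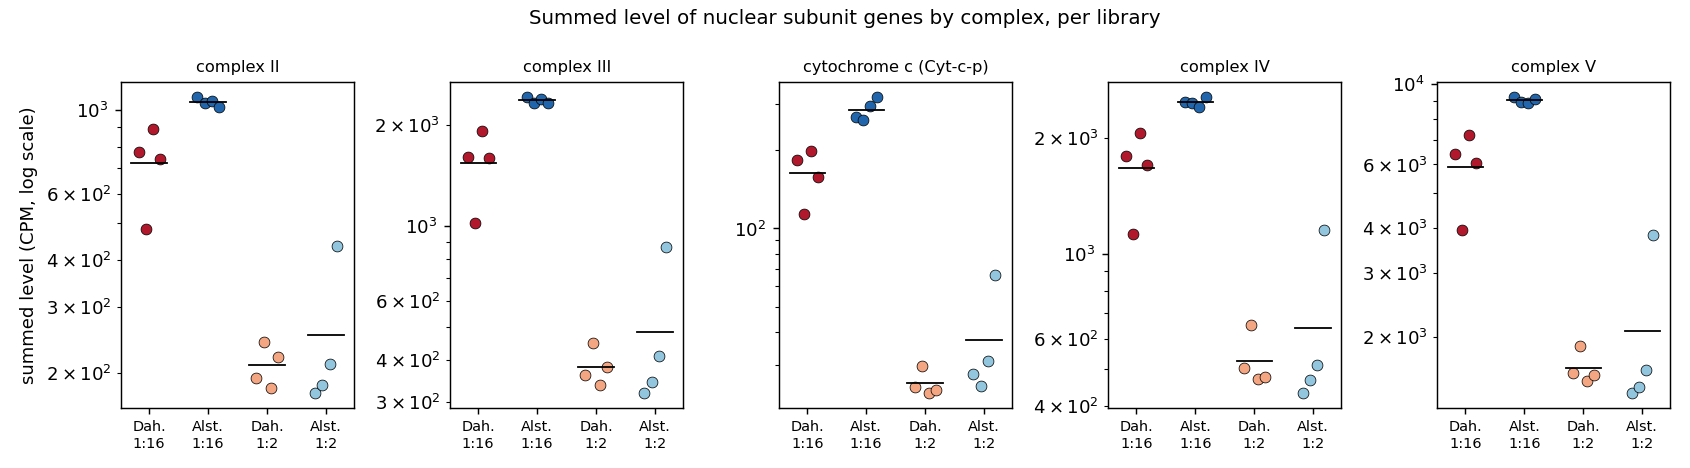
Summed level (CPM, log scale) of the nuclear subunit genes of each complex in every library, with a line at each group mean. Within each mitotype all 1:16 libraries lie above all 1:2 libraries in every complex, the Alstonville libraries on 1:16 lie above the Dahomey ones, and Alstonville 1:2 replicate 4 stands above the rest of its group.

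The comparisons between diets and between mitotypes share libraries, so they are not independent. The first question was how diet changed these genes within each mitotype. On 1:16 all 31 subunit genes with reads and Sdhaf3 were higher than on 1:2, in both mitotypes. The median log2 fold change over the 31 subunits was 1.76 in Dahomey and 2.04 in Alstonville, beside medians of -0.12 and -0.11 over all genes tested. With limma and 2 surrogate variables the medians over all 48 tested members were 0.76 in Dahomey and 1.02 in Alstonville, beside 1.64 and 1.89 in the edgeR fit. In edgeR's quasi-likelihood test with Benjamini-Hochberg adjustment over all genes, 32 of 48 members were called higher in Dahomey, where 24.6% of all genes were, and 0 were called lower, where 24.4% were. In Alstonville 32 were called higher, where 30.6% of all genes were, and 3 lower, where 29.3% were. For the 31 subunits no 1:16 library overlapped a 1:2 library of the same mitotype, an arrangement seen for 25.1% of all genes in Dahomey and 29.1% in Alstonville. In bulk larvae fewer cells of a type and less RNA per cell cannot be told apart.

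Complex II transfers electrons from succinate to ubiquinone. Its subunits summed to 723 ± 173 CPM in Dahomey on 1:16 against 210 ± 26.8 CPM on 1:2, and to 1052 ± 26.6 CPM in Alstonville on 1:16 against 253 ± 123 CPM on 1:2 (SD, n = 4). SdhC (3R:11208887-11209849), a membrane anchor, had the smallest p of the complex. Its 1:16 values were 142, 84.4, 171 and 137 CPM in Dahomey, against 33.7, 39.0, 31.99 and 31.7 CPM on 1:2. In Alstonville they were 196, 182, 192 and 196 CPM, against 30.2, 29.6, 35.4 and 69.6 CPM on 1:2. The groups did not overlap in either mitotype. Its log2 fold change was 1.97 ± 0.26 in Dahomey and 2.22 ± 0.27 in Alstonville (SE; edgeR adjusted p = 0.00010 and 1.5e-05). The other subunits, SdhA, SdhB and SdhD, rose by 1.67 to 1.80 in Dahomey and by 1.98 to 2.07 in Alstonville on the log2 scale. Sdhaf3 rose by 1.14 and 1.08.

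Complex III subunits summed to 1538 ± 377 CPM in Dahomey on 1:16 against 382 ± 49.0 CPM on 1:2, and to 2374 ± 46.6 CPM in Alstonville on 1:16 against 486 ± 258 CPM on 1:2. Its 7 subunits with reads spread more widely than those of the other complexes. Cyt-c1, the heme-bearing subunit that reduces cytochrome c, had log2 fold changes of 2.35 ± 0.34 in Dahomey and 2.58 ± 0.35 in Alstonville. UQCR-6.4, a small subunit, had the smallest p of the complex, at 1.93 ± 0.24 and 2.19 ± 0.25 (edgeR adjusted p = 6.9e-05 and 1.0e-05). UQCR-11 (3L:25120709-25126171), a small accessory subunit, had the smallest of all 31, at 0.86 ± 0.16 and 1.22 ± 0.16 (edgeR adjusted p = 0.00087 and 3.3e-05). It was at 73.7, 60.9, 76.8 and 75.0 CPM in Dahomey on 1:16 and at 39.3, 45.7, 42.6 and 30.2 CPM on 1:2. In Alstonville it was at 88.0, 105, 88.6 and 100 CPM on 1:16 and at 36.7, 37.2, 33.8 and 56.2 CPM on 1:2. Even so, its 1:16 libraries all lay above its 1:2 libraries.

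Cyt-c-p (2L:16719932-16722644), the cytochrome c of somatic tissue, had the largest diet change of all 31 subunits. It was at 183, 114, 197 and 157 CPM in Dahomey on 1:16 and at 24.7, 29.9, 23.5 and 24.1 CPM on 1:2. In Alstonville it was at 266, 261, 293 and 318 CPM on 1:16 and at 27.9, 25.04, 31.2 and 66.1 CPM on 1:2. The log2 fold change was 2.67 ± 0.28 in Dahomey and 2.92 ± 0.28 in Alstonville (SE; edgeR adjusted p = 1.9e-05 and 3.4e-06).

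Complex IV subunits summed to 1670 ± 394 CPM in Dahomey on 1:16 against 525 ± 85.4 CPM on 1:2, and to 2481 ± 58.1 CPM in Alstonville on 1:16 against 641 ± 341 CPM on 1:2. Its 8 nuclear subunits moved within a narrow band, with log2 fold changes of 1.44 to 1.94 in Dahomey and 1.77 to 2.27 in Alstonville. COX5B, a peripheral subunit, was at the top in both (1.94 ± 0.28 and 2.27 ± 0.28; edgeR adjusted p = 0.00017 and 2.2e-05). COX7B, the most abundant per kb, had 1.76 ± 0.29 and 2.09 ± 0.29, and COX8 had 1.75 ± 0.26 and 2.03 ± 0.26.

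Complex V subunits summed to 5919 ± 1408 CPM in Dahomey on 1:16 against 1642 ± 171 CPM on 1:2, and to 9024 ± 153 CPM in Alstonville on 1:16 against 2076 ± 1167 CPM on 1:2. ATPsynbeta was at 2211, 1339, 2468 and 2064 CPM in Dahomey on 1:16 and at 490, 507, 471 and 503 CPM on 1:2. In Alstonville it was at 3233, 3278, 3110 and 3132 CPM on 1:16 and at 449, 440, 505 and 1230 CPM on 1:2. The groups did not overlap, and the log2 fold changes were 2.04 ± 0.30 and 2.28 ± 0.30. ATPsynCF6, a coupling factor of the stalk, had the smallest p of the complex (1.69 ± 0.24 and 1.96 ± 0.24; edgeR adjusted p = 0.00015 and 2.0e-05). All 11 subunits lay between 1.45 and 2.04 in Dahomey and between 1.74 and 2.28 in Alstonville.

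**Figure D2:**
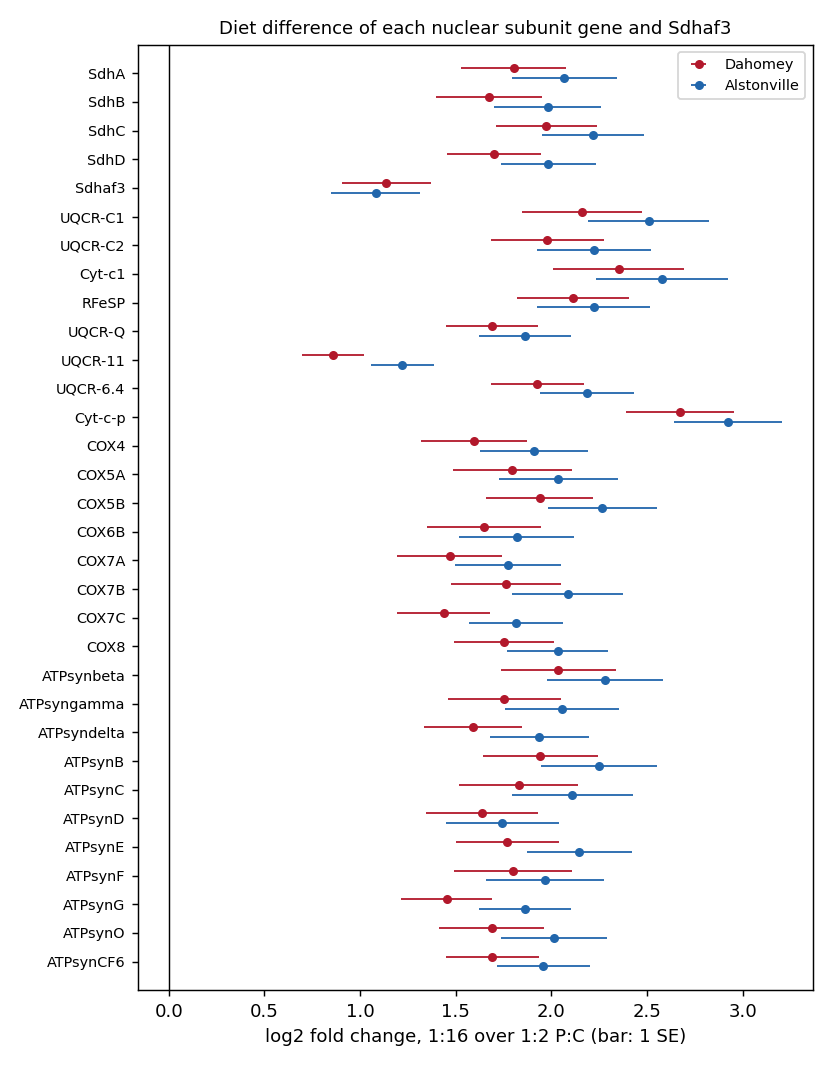
Log2 fold change of 1:16 over 1:2 P:C, with bars of 1 SE, for the 31 subunit genes tested and Sdhaf3 in Dahomey and Alstonville larvae. All lie above 0, with Cyt-c-p farthest to the right and UQCR-11 and Sdhaf3 nearest to 0.

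Markers of tissue and stage moved with diet as well. The 14 genes of the muscle list summed to 33418 to 66164 CPM in Dahomey on 1:16 against 4596 to 15416 CPM on 1:2, and to 68833 to 79141 CPM in Alstonville on 1:16 against 3040 to 36053 CPM on 1:2. In Dahomey 12 of them were called higher on 1:16 and in Alstonville 13, beside 24.6% and 30.6% of all genes. All 10 ecdysone response genes, which respond to the moulting hormone, were called lower on 1:16 in both mitotypes. They summed to 338 to 971 CPM in Dahomey on 1:16 against 1541 to 3708 CPM on 1:2, and to 257 to 288 CPM in Alstonville on 1:16 against 1037 to 4129 CPM on 1:2. Of the 6 glue genes 4 were called lower on 1:16 in Dahomey and 6 in Alstonville, beside 24.4% and 29.3% of all genes. Of the 6 fat body genes 3 were called lower on 1:16 in Dahomey and 4 in Alstonville. They summed to 31897 to 48682 CPM in Dahomey on 1:16 against 55495 to 88102 CPM on 1:2. In Alstonville they summed to 5380 to 35834 CPM on 1:16 against 47630 to 145233 CPM on 1:2. No gene of the muscle, ecdysone and glue lists was at 0 in every library of a group. The part of tissue makeup, stage and sex in the diet difference was not tested. Without Alstonville 1:2 replicate 4 and Dahomey 1:16 replicate 2 the same test called 32 members higher in each mitotype. Of all genes, 26.3% were then called higher in Dahomey and 33.5% in Alstonville. Without the 4 libraries on 1:2 with high lncRNA:roX1 all 31 subunits and Sdhaf3 were again called higher in both, beside 34.9% and 26.4% of all genes. In that fit all 15 paralogs tested were also called higher in Dahomey (median 4.72 on the log2 scale), and 3 in Alstonville. It kept every 1:16 library, and these hold male transcripts too, so it is not a test of sex. Paralogs such as SdhCL passed the filter of that fit only through the Dahomey libraries on 1:16, which partly set their direction.

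**Figure D3:**
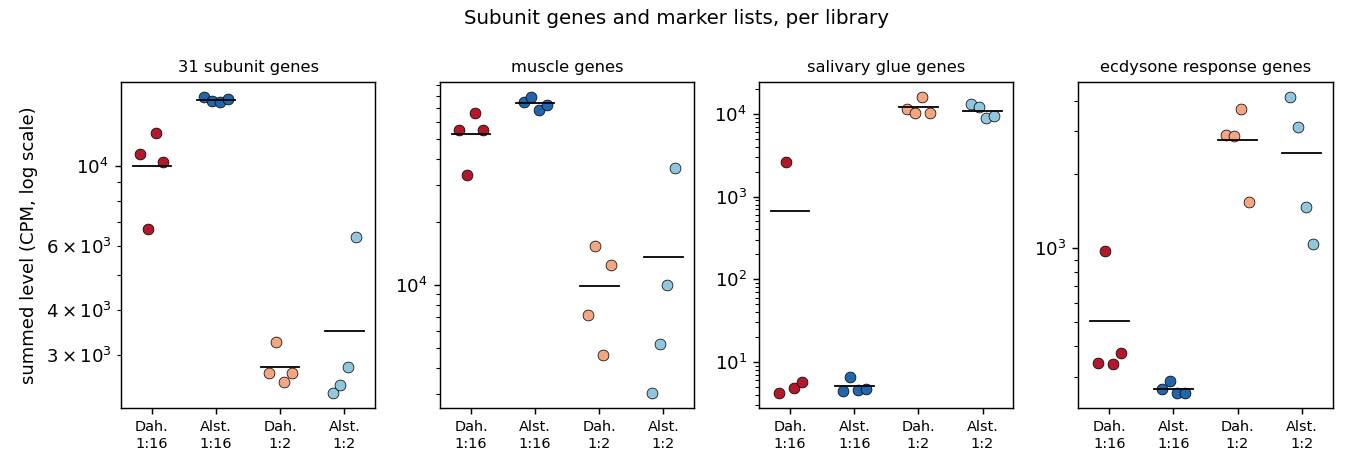
Summed level (CPM, log scale) of the subunit genes and of muscle, salivary glue and ecdysone response genes in every library, with a line at each group mean. Muscle genes are high where subunit genes are high, glue genes are at 4.2 to 6.6 CPM in 7 of the 8 libraries on 1:16, and Dahomey 1:16 replicate 2 is the exception.

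Other genes of the pathway were followed as lists, beside 24.6% of all genes called higher on 1:16 in Dahomey and 30.6% in Alstonville. Of the 5 somatic subunits with other symbols (blw, sun, cype, levy and ox) all 5 were called higher on 1:16 in both mitotypes. Of 39 nuclear complex I genes tested, 32 were called higher in Dahomey and 32 in Alstonville, where 1 was lower. Their medians were 1.39 and 1.69. Among the 6 mtDNA-encoded subunits of complexes III to V, 4 were called higher in Dahomey and 6 in Alstonville, with medians of 0.47 and 1.03, below those of the nuclear subunits. CYTB had log2 fold changes of 0.48 and 1.09. The adenine nucleotide carrier sesB, which exports ATP from the matrix, had 2.22 and 2.65. Gpo1, which feeds electrons from glycerol-3-phosphate to ubiquinone, had the largest changes of its list, 4.46 and 4.67. Of 9 assembly and copper or heme factors tested 8 were called higher in each mitotype. The last list held srl, ewg, Ets97D, ERR, TFAM, Pink1, mTerf3 and mtRNApol, not all of which regulate nuclear genes. Of these 8 genes 5 were called higher and 1, ewg, lower in each mitotype.

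The second question was whether the mitotypes differed on each diet. On 1:2 the 31 subunits had log2 fold changes of Dahomey over Alstonville between -0.56 and -0.05, and all groups overlapped. None of 48 members was called by edgeR (0 at an unadjusted p under 0.05, and 0 by DESeq2), where 0.0941% of all genes were. The sign rested on 1 library. Without Alstonville 1:2 replicate 4, which had 6342 CPM over all subunits beside 2360 to 2788 CPM in the rest of its group, the median over the tested members was 0.14 in place of -0.24.

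On 1:16 every one of the 31 subunits was lower in all 4 Dahomey libraries than in all 4 Alstonville libraries, an arrangement seen for 24.2% of all genes. The summed level of the subunits was 10790, 6689, 12331 and 10241 CPM in Dahomey and 15460, 15062, 15026 and 15311 CPM in Alstonville. The Alstonville libraries lay close together, while Dahomey replicate 2 was well below the others. The median log2 fold change of the 31 subunits was -0.58, with a range of -0.81 to -0.42, beside -0.03 over all genes. By edgeR none of 48 members was called at adjusted p under 0.05, where 6.01% of all genes were called higher and 9.3% lower, while 17 members, 16 subunits that were lower and the paralog COX7AL, which was higher, had an unadjusted p under 0.05. DESeq2 called 1 member higher and 1 lower, where it called 11.6% of all genes higher and 11.2% lower. The subunits' adjusted p lay between 0.055 and 0.29.

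Cyt-c-p had the smallest, with a log2 fold change of -0.81 ± 0.26 (edgeR adjusted p = 0.055). UQCR-C1, a core protein of complex III, was at 478, 308, 618 and 499 CPM in Dahomey and at 860, 793, 837 and 794 CPM in Alstonville, a log2 fold change of -0.79 ± 0.30 (edgeR adjusted p = 0.091). ATPsynG, a membrane subunit of the ATP synthase, had -0.62 ± 0.23 (adjusted p = 0.085), COX7C had -0.60 ± 0.24 (adjusted p = 0.105) and SdhD, a membrane anchor of complex II, -0.59 ± 0.24 (adjusted p = 0.11). By complex the subunit medians were -0.54 for II, -0.56 for III, -0.59 for IV and -0.58 for V.

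CYTB, the mtDNA-encoded core of complex III, was the only one of the 6 mtDNA-encoded subunits called lower in Dahomey on 1:16 (log2 fold change -0.53; edgeR adjusted p = 0.049). Poly(A) selection can affect how mtDNA-encoded RNAs are sampled.

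The call on 1:16 depended on which libraries set the spread. Without Alstonville 1:2 replicate 4, a library outside this comparison, 29 subunits were called lower in Dahomey with the same median of -0.58, where 15.2% of all genes were called lower in that fit. With only the 8 libraries on 1:16 in the fit, 17 subunits were called lower, where 16.2% of all genes were, and 11 paralogs higher, where 24.2% were. SdhCL, at 0.38 to 1.09 CPM in Dahomey and at most 0.046 CPM in Alstonville, passed the filter of that fit only through Dahomey. For such paralogs the filter partly set the direction, so no conclusion is drawn from their calls. Without Dahomey 1:16 replicate 2 the median of the subunits was -0.42 and 0 were called, where 5.99% of all genes were called lower.

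Markers also moved with mitotype on 1:16. Dahomey replicate 2 had 2639 CPM of glue genes, where the other 7 libraries on 1:16 had 4.2 to 6.6 CPM, and it had 33418 CPM of muscle genes against 55254 to 66164 CPM in the other Dahomey libraries on 1:16. Of the 14 muscle genes 10 were lower in all Dahomey than in all Alstonville libraries on 1:16, where 24.2% of all genes were, and 0 were called. All 6 glue genes were called higher in Dahomey, where 6.01% of all genes were. The difference in summed glue level came from replicate 2, since the other Dahomey libraries were at 4.2 to 5.74 CPM. Fat body genes summed to 31897 to 48682 CPM in Dahomey and 5380 to 35834 CPM in Alstonville on 1:16, and 2 of 6 were called higher in Dahomey. Ecdysone response genes summed to 338 to 971 CPM in Dahomey and 257 to 288 CPM in Alstonville, without overlap, and 2 of 10 were called higher in Dahomey. The part of these markers in the mitotype difference was not tested.

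**Figure D4:**
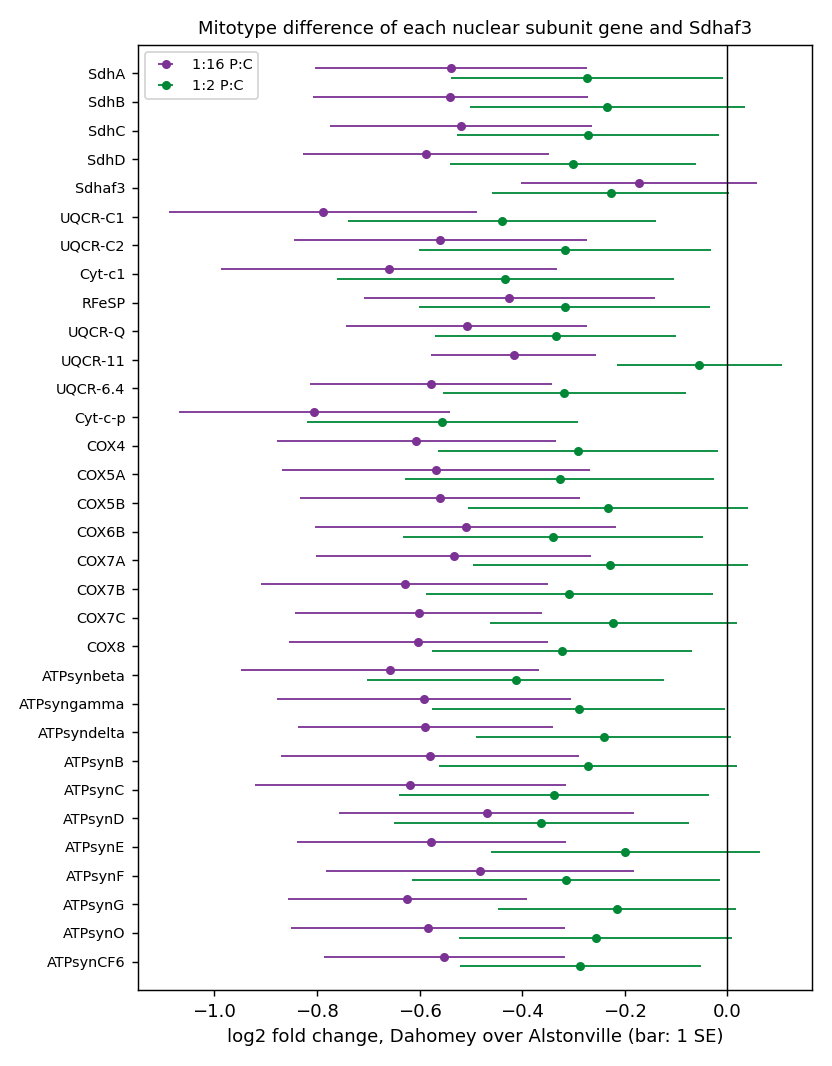
Log2 fold change of Dahomey over Alstonville, with bars of 1 SE, on 1:16 and 1:2 P:C for the 31 subunit genes tested and Sdhaf3. Values on 1:16 lie between -0.81 and -0.17 and those on 1:2 between -0.56 and -0.05.

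The difference of the mitotype effect between diets was tested as an interaction. No member was called by edgeR (0 at an unadjusted p under 0.05, and 0 by DESeq2), where 0.784% of all genes were. The 31 subunits had interaction terms of -0.41 to -0.11 on the log2 scale, with a median of -0.28. Their size rested on single libraries. Without Alstonville 1:2 replicate 4 the terms were -0.81 to -0.55 with a median of -0.74, and without Dahomey 1:16 replicate 2 the median was -0.13, with 0 called in either fit. The smallest p among subunits belonged to UQCR-11, at -0.36 ± 0.23 (edgeR adjusted p = 0.49). In the main fit a difference in the diet response between mitotypes was therefore not detected for these members.

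The paralogs followed another pattern. Their 18 genes summed to 27.8, 15.6, 18.7 and 38.6 CPM in Dahomey on 1:16 and to 7.8, 9.5, 6.4 and 13.4 CPM in Alstonville on 1:16. On 1:2 the sums were 1.4, 19.1, 1.4 and 145 CPM in Dahomey and 2.1, 63.7, 44.1 and 2.9 CPM in Alstonville. Within each 1:2 group 2 libraries were high and 2 low, and the high ones were those with high lncRNA:roX1. dj and Mst77F, genes of developing sperm, were high in the same libraries. dj was at 5.45 and 42.7 CPM in Dahomey 1:2 replicates 2 and 4 and at 15.7 and 11.2 CPM in Alstonville 1:2 replicates 2 and 3, with at most 0.032 CPM in the other 4. Cyt-c-d, the second cytochrome c gene, was at 1.3 and 12.3 CPM and at 5.5 and 3.2 CPM in those libraries. Across diets the levels did not go together in the same way. Male and testis marker genes summed to 171 to 577 CPM in Alstonville on 1:16, where the paralogs were at 6.4 to 13.4 CPM. Those markers summed to 315 and 319 CPM in Alstonville 1:2 replicates 2 and 3, where the paralogs were at 63.7 and 44.1 CPM. These marker sums include lncRNA:roX1, the dosage compensation RNA, so they do not measure testis RNA alone. The reason for the difference between diets was not tested.

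Between mitotypes on 1:16 the paralogs had a median log2 fold change of 2.63 for Dahomey over Alstonville, opposite in sign to the subunits, and 0 of 16 were called (1 at an unadjusted p under 0.05). SdhCL (3R:11114671-11115706), a copy of the anchor gene SdhC, had 71 counts in the Dahomey and 2 in the Alstonville libraries on 1:16, a ratio of 31.1 (95% counting interval 8.31 to 262). That interval covers counting error only and not the spread between libraries, and SdhCL was not called. COX4L, the highest paralog per kb, averaged 2.7 ± 1.21 CPM in Dahomey and 0.422 ± 0.236 CPM in Alstonville on 1:16, and 5.71 ± 9.46 CPM in Dahomey and 3.37 ± 3.72 CPM in Alstonville on 1:2 (SD, n = 4).

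Of the 16 paralogs tested 3 were called lower on 1:16 in Alstonville, where 29.3% of all genes were, and these calls rest on the same libraries. SdhAL (3L:11922610-11924757), a copy of the flavoprotein gene SdhA, had 4 counts in the 4 libraries on 1:16 and 246 on 1:2, a ratio of 0.0238 (95% counting interval 0.00642 to 0.0616). SdhCL had 2 and 216 counts (ratio 0.0135, interval 0.00163 to 0.0495), and COX7AL had 8 and 205 (ratio 0.0570, interval 0.0243 to 0.115). These intervals cover counting error only. The edgeR adjusted p was 0.042 for SdhAL, 0.046 for SdhCL and 0.041 for COX7AL, and their 1:2 libraries overlapped those on 1:16. Without the 4 libraries on 1:2 with high lncRNA:roX1 none of the 3 was called, SdhAL and SdhCL had the opposite sign (0.25 and 2.42 on the log2 scale), and COX7AL had -0.31. Those libraries were chosen, after the data were seen, for high lncRNA:roX1, which the paralogs follow within the 1:2 libraries. The 1:16 libraries, which also hold male transcripts, were all kept, so that choice sets the direction of these values. The part of male larvae in these values was not tested.

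**Figure D5:**
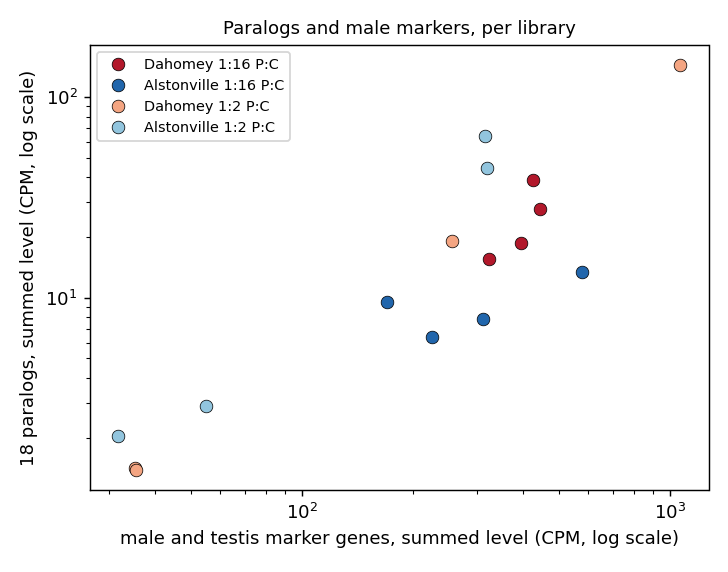
Summed level of the 18 paralogs against the summed level of the male and testis marker genes (CPM, both axes log scale), 1 point per library. The 4 libraries on 1:2 with 1.4 to 2.9 CPM of paralogs are also lowest in male markers, and Dahomey 1:2 replicate 4 is highest in both.

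The subunits varied together among libraries. Over the 8 libraries on 1:16 the median Pearson correlation between pairs of the 31 subunits was 0.99 (465 pairs), and over the 8 on 1:2 it was 0.97, with a lowest value of 0.59. The libraries of each diet share the mitotype difference and the libraries that stand apart, so these values describe the libraries.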

How the data were processed

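RNA-seq counts of 16 libraries were analysed. Per the paper's methods and the labels, paired-end reads from poly(A) libraries were mapped by Subread (Release 6 plus ISO1 MT). The deposited counts are the authors' unnormalized featureCounts output, 1 value per NCBI gene. Strand and multimapping settings were not given in the sources used here. The members and lists were chosen with earlier results of these data known. Groups came from the sample titles.

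Genes with 0.25 CPM in at least 4 libraries were kept (12750), scaled by TMM and fitted in edgeR 4.0.16 (R 4.3.3; robust quasi-likelihood, 1 coefficient per group, 12 residual degrees of freedom). Biological variation (edgeR common BCV) was 0.521. Each SE was derived as |logFC| divided by √F. An adjusted p under 0.05 was called. The authors' own model was limma with surrogate variables whose number was not given, so edgeR on counts was the main test, and limma 3.58.1 and DESeq2 1.42.0 were alternatives. The script was tested on simulated data. The first such test missed the recovery it had been set and was revised afterwards, and in the revised test DESeq2 made more false calls than edgeR, so its counts are liberal.

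Members named were, by complex, the highest per kb, the smallest p in each comparison, any called in the mitotype comparison on 1:2 or the interaction, those called against the majority, and the paralogs. List genes named beside them, and Cyt-c1, SdhA and ATPsyndelta, were chosen after their values were seen. Positions and names came from the reference table of the same assembly. Replicates are described as independent. The authors estimated surrogate variables for technical effects and removed batch effects from the values they drew as heatmaps, but neither the batches nor the libraries in them are named in the sources used here, so no within-batch value could be given. In addition, no library pair agreed within sampling noise (chi-square per gene at least 12.2 over 24 pairs). Promoter motifs and other assays were not analysed here.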

Additional observations from a re-analysis of the deposited data

Results flagged for a closer look

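In groups of 4 libraries the gap of the highest or lowest library to its neighbour was compared with the group's range. Of 92 groups examined 23 stood out. The rule flags about 1 in 20 sets of independent values. These genes and sums vary together and share libraries, so the count was not compared with chance. Most of the 23 came from Alstonville 1:2 replicate 4, the highest of its group. Its summed subunit level was 436 CPM for complex II (next 212), 868 CPM for III (next 412), 1150 CPM for IV (next 513), 3821 CPM for V (next 1621) and 6342 CPM in all (next 2788). The same library was highest for SdhB at 128 CPM, SdhD at 57.1 CPM, SdhC at 69.6 CPM, UQCR-11 at 56.2 CPM, UQCR-6.4 at 24.9 CPM, Cyt-c-p at 66.1 CPM, COX7B at 115 CPM, COX8 at 63.3 CPM, COX7C at 72.1 CPM, COX5B at 101 CPM, ATPsynbeta at 1230 CPM, ATPsynG at 99.2 CPM and ATPsynCF6 at 121 CPM. It also had the most muscle RNA (36053 CPM) and the most fat body RNA (145233 CPM, next 73652) of its group. Its ecdysone response RNA was the lowest of the group (1037 CPM).

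Dahomey 1:2 replicate 4 was highest of its group for the summed paralogs at 145 CPM (next 19.1), SdhCL at 8.13 CPM, COX7AL at 7.02 CPM and SdhAL at 8.80 CPM, and its male and testis markers were at 1067 CPM. Dahomey 1:2 replicate 2 was highest for COX7B at 64.6 CPM (next 48.6). The part of tissue makeup or sex in these values was not tested.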

How the results depend on the processing

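Of 28 diet results for named subunits, all kept their direction and call under the other settings (280 of 280 values) and when each library was left out (448 of 448). The counts of members called ranged over the fits without 1 library from 32 to 34 for diet in Dahomey, 32 to 39 for diet in Alstonville, 0 to 29 for mitotype on 1:16, and 0 to 0 for mitotype on 1:2 and for the interaction. For mitotype on 1:16 the count of 0 became 2 with DESeq2 (1 higher, 1 lower), 1 lower with limma-trend without surrogate variables, 5 lower with 2 surrogate variables (13.3% of all genes lower) and 28 with only the 8 libraries compared (17 subunits lower, 11 paralogs higher). The interaction count became 1 with 2 surrogate variables, where 935 of 12750 genes were called. A fit added after the data were seen left out both Alstonville 1:2 replicate 4 and Dahomey 1:16 replicate 2. It gave 23 subunits lower in Dahomey on 1:16 (11.6% of all genes lower). For the interaction it gave 1 subunit, where 318 of 12704 genes were called. Leaving out the 4 libraries on 1:2 with high male transcripts gave 9 on 1:16, all of them paralogs higher in Dahomey, with 0 subunits called (19.2% of all genes higher). The libraries on 1:16, which hold male transcripts too, were kept. In that fit, and with only the 8 libraries compared, some paralogs passed the filter only through Dahomey on 1:16, which partly set their direction. Over fits without 1 library the median on 1:2 lay between -0.39 and 0.14. It turned to 0.14 without Alstonville 1:2 replicate 4, alone or with Dahomey 1:16 replicate 2, and that of the interaction to 0.23 without those 4 libraries, where SdhAL and SdhCL in Alstonville turned to 0.25 and 2.42. Over fits without 1 library the interaction median over the tested members lay between -0.63 and -0.09. With 2 surrogate variables the diet medians over all 48 tested members were 0.76 in Dahomey and 1.02 in Alstonville, in place of 1.64 and 1.89.

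Same-numbered libraries had correlations of deviations from -0.82 to 0.77, and the own number correlated best in 14 of 48 cases. Deviations were taken from the mean of each group and the batches are not named, so these values cannot exclude a batch shared by number. With a replicate block 32 members were called for diet in Dahomey, 32 in Alstonville and 0 in the other comparisons, and SdhAL, SdhCL and COX7AL were no longer called. When single libraries were left out these paralogs lost the call in 10, 11 and 7 of 16 fits. RLE and upper-quartile scaling changed no count of members. For mitotype on 1:16 they moved the calls over all genes to 1002 higher and 919 lower with RLE and to 1371 higher and 592 lower with upper-quartile scaling, in place of 766 and 1186. There upper-quartile scaling moved the median over all genes to 0.11, from -0.03, and that over the tested members to -0.39, from -0.53. Depth limits the paralogs, since 3 counts were 0.0941 to 0.121 CPM.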
